A study of Homo sapiens with 9 samples.

Results

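NOX5 and 8 genes of superoxide production and removal were followed in MDA-MB-231, an established human line of triple-negative breast cancer, after transfection of small RNA mimics. The members were all probe sets that the array's annotation assigned to 1 gene only, that gene being NOX5, NOX1, NOX4, CYBA, CYBB, SOD1, SOD2, SOD3 or CAT. There were 20 such probe sets of the 54613 tested, which span 19775 genes, and 4 further probe sets named SOD2 together with SOD2-OT1 and were not counted as members. NOX5 was chosen by its lower signal with the mimics than with AllStar in these same arrays, so its differences from AllStar are described here without a test. The other members were listed beside it by function.

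The groups were cells given Qmimic, cells given Dmimic and cells given AllStar, a negative control RNA, with 3 biological replicates each. All were reverse transfected with Lipofectamine at 10 nM in wells of 600000 cells, and total RNA was taken after 48 h, so the transfection itself was shared by every group. Each replicate was measured on 1 Affymetrix HG-U133 Plus 2.0 array. miR-34a, a microRNA, and AXL, a receptor tyrosine kinase, appear in the title. Neither the meaning of Q and D nor a mimic sequence is in the labels. The cells were of 1 line. The labels call the replicates biological without saying how they were made separate, so the p-values measure the spread between replicates of this line.

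NADPH oxidases are membrane enzymes that pass electrons from NADPH across a membrane to oxygen and so make superoxide. NOX1, NOX4 and CYBB (also called NOX2 or gp91phox) are catalytic subunits that need the partner p22phox, encoded by CYBA, whereas NOX5 works without it and is switched on by calcium through EF-hands at its amino end. Superoxide dismutases turn superoxide into hydrogen peroxide in the cytosol (SOD1), in mitochondria (SOD2) and outside the cell (SOD3), and catalase (CAT) splits hydrogen peroxide into water and oxygen. NOX5 has no counterpart in mice and rats, and CYBB is best known from phagocytes.

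The mature miR-34a-5p is shown because the title names miR-34a, with the seed (bases 2 to 8, which pair with target messages) in capitals. The NOX5 promoter is shown because NOX5 was the gene chosen by its differences from AllStar. The CAT promoter is shown because on CAT 201432_at every mimic array lay above every AllStar array. With all 9 arrays 8.33% of all probe sets did so, and CAT 215573_at went the other way. Sequences are from RefSeq on GRCh38.p14, 5′ to 3′ on the gene's strand. The miR-34a-5p locus is chr1:9151735-9151756 on the minus strand. The NOX5 window is chr15:69014445-69014744 and the CAT window chr11:34438684-34438983, both on the plus strand, and each holds 250 bases before the gene's start and 50 after it. Capitals in the promoters mark motif matches.
hsa-miR-34a-5p: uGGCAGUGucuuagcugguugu
NOX5 promoter: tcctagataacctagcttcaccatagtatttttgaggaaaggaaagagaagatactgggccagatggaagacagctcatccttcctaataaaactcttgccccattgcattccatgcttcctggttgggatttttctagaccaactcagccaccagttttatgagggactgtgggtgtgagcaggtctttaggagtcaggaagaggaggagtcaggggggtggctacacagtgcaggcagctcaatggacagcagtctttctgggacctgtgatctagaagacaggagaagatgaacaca
CAT promoter: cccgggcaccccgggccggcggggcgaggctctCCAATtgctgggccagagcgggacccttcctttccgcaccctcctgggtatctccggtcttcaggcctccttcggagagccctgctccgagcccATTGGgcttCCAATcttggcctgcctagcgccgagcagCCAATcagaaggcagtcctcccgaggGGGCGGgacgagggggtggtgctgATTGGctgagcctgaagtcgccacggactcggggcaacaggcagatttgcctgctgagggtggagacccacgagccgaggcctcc

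The motifs searched on both strands were the GC box GGGCGG, the CCAAT box, the TATA box TATAAA, the AP-1 site TGANTCA and the antioxidant response element TGACNNNGC. The CAT window held 1 GC box and 5 CCAAT boxes, while the NOX5 window held no match to any of the 5 motifs and is therefore all in lower case. Of 35116 promoter windows of the same length, 45% held the GC box, 34.6% the CCAAT box, 11.5% the TATA box, 7.71% the AP-1 site and 13.3% the antioxidant response element. The GC content was 48% in the NOX5 window and 68% in the CAT window, against a median of 58.7% over all windows. RefSeq windows matched 8 of the 9 members, 13 windows in all. Among these 13, 7 held the GC box, 6 the CCAAT box and 0 any of the other 3 motifs. A match describes letters and shows no bound factor.

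The values are log2 signals from RMA, the authors' background correction, quantile normalization and probe summary. AllStar replicate 3 stood apart: its correlation with the other 8 arrays was 0.974 to 0.981, against 0.993 to 0.998 among those 8, and its interquartile range was 2.99, against 3.41 to 3.53. Relative to AllStar replicates 1 and 2 it was high for dim probe sets (median 0.21 at a log2 level of 4 to 6) and low for bright ones (median -0.44 at 8 to 10 and -0.31 at 10 and over). Values without that array are therefore given beside those with all 9. The line's mesenchymal character showed in VIM at 13.53 to 13.71 and CDH1 at 3.44 to 4.02, though SPARC, listed as a marker, lay at only 3.44 to 4.19. Of the 5 genes listed as low in this line, CDH1 and PGR (3.64 to 4.72) were dim, while ESR1 lay at 6.74 to 7.45, ERBB2 at 8.11 to 8.78 and EPCAM at 7.25 to 8.36. The leukocyte markers PTPRC (3.73 to 4.46) and LYZ (3.74 to 3.95) lay near the lower quartile of all probe sets, 4.06, while CD14 lay at 5.57 to 6.22 and ITGAM at 5.54 to 6.30. The mean of the 7 leukocyte markers measured spanned 4.62 to 4.68 with Qmimic, 4.64 to 4.71 with Dmimic and 4.60 to 4.97 with AllStar, the highest on AllStar replicate 3.

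NOX5, the calcium-activated oxidase, was lower with both mimics on each of its probe sets. On probe set 220641_at the log2 level was 7.38, 7.44 and 7.47 in the Qmimic arrays, 7.45, 7.84 and 7.49 in the Dmimic arrays, and 8.17, 8.26 and 8.51 in the AllStar arrays. All 6 mimic arrays lay below all 3 AllStar arrays, and the nearest to AllStar was Dmimic replicate 2. The group means were 7.43 ± 0.045 with Qmimic, 7.59 ± 0.22 with Dmimic and 8.31 ± 0.18 with AllStar (SD, n = 3 each). These correspond to differences from AllStar of -0.88 (1.84-fold lower) with Qmimic, -0.72 (1.65-fold lower) with Dmimic and -0.80 (1.74-fold lower) for the mean of both mimics. Of all probe sets, 3.83% had all mimic arrays below all AllStar arrays; as this contrast chose NOX5, nothing is read from its place among them.

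The other NOX5 probe set, 1553023_a_at, is annotated to the same transcript record and separated the groups less cleanly. Its log2 level was 6.24, 6.29 and 6.50 with Qmimic and 6.53, 6.67 and 6.20 with Dmimic, against 7.33, 7.43 and 6.49 with AllStar. AllStar replicates 1 and 2 were above every mimic array, while AllStar replicate 3 lay within the range of the mimic arrays. The means were 6.34 ± 0.14 with Qmimic, 6.47 ± 0.24 with Dmimic and 7.08 ± 0.52 with AllStar (SD, n = 3 each), differences of -0.74 and -0.62 on the log2 scale. On this one array the probe sets of NOX5 moved in opposite directions: relative to AllStar replicates 1 and 2, AllStar replicate 3 was 0.30 higher on 220641_at and 0.89 lower (-0.89) on 1553023_a_at. The part of array quality in this was not tested.

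**Figure D1:**
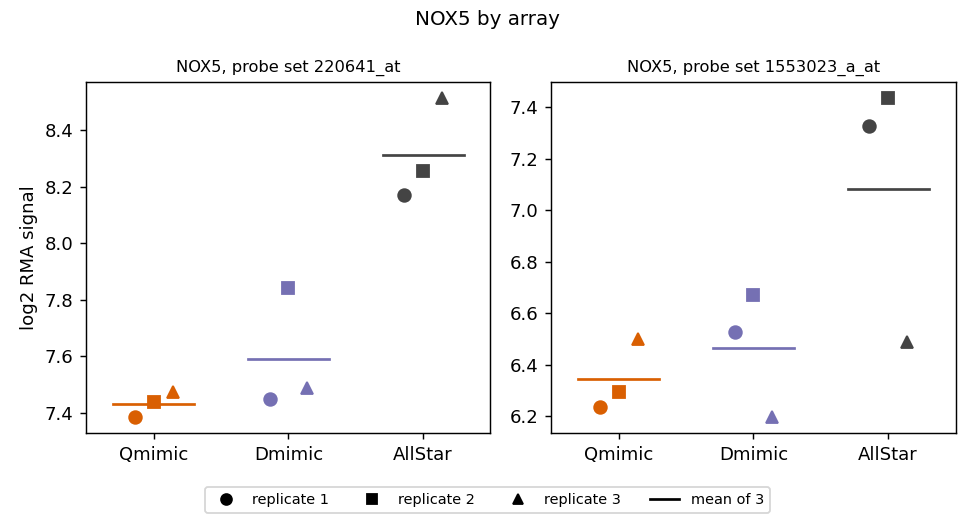
Log2 RMA signal of the 2 NOX5 probe sets (vertical axes, with separate ranges) on each Qmimic, Dmimic and AllStar array; symbols give the replicate and bars the mean of 3. On 220641_at the AllStar arrays sit at 8.17 to 8.51, above every mimic array, while on 1553023_a_at AllStar replicate 3 sits at 6.49, among the mimic arrays.

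Without AllStar replicate 3 both probe sets of NOX5 separated the groups. The differences on 220641_at were then -0.78 (1.72-fold lower) with Qmimic and -0.62 (1.54-fold lower) with Dmimic, and those on 1553023_a_at -1.04 (2.05-fold lower) with Qmimic and -0.92 (1.89-fold lower) with Dmimic. All mimic arrays lay below the remaining AllStar arrays on both probe sets, as they did for 10.1% of all probe sets in that set of arrays. The array thus changed which probe set showed the larger difference and did not change the direction on either.

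The order of the NOX5 levels was Qmimic, Dmimic and AllStar from low to high on both probe sets, and the mimics did not differ beyond their spread. The contrast of Qmimic with Dmimic does not use the AllStar levels for which NOX5 was picked, and could be tested in limma, a linear model over all probe sets with moderated variances. The difference was -0.16 (95% interval -0.44 to 0.12, adjusted p = 0.9999) on 220641_at and -0.12 (95% interval -0.63 to 0.38, adjusted p = 0.9999) on 1553023_a_at. Without AllStar replicate 3, whose only part here is in the variance, the adjusted p from limma was 0.575 and 0.736. The Qmimic and Dmimic arrays overlapped on both probe sets.

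The genes most like NOX5 were ranked by Pearson's r with 220641_at across arrays, among 12625 genes with at least a median signal. Over the 9 arrays they were GPR3 (r = 0.977), PHACTR1 (0.962), EIF4EBP2 (0.950), NUP210 (0.950) and IL1RL1 (0.950). GPR3 encodes a G protein-coupled receptor, EIF4EBP2 a repressor of cap-dependent translation and NUP210 a nuclear pore protein. Over the 8 arrays without AllStar replicate 3 they were VOPP1 (0.984), CCND1 (0.983), KLHDC8B (0.976), PGAM1 (0.974) and CTDSP2 (0.969). Of that second set, CCND1, the G1 cyclin D1, kept r = 0.892 when all 9 arrays were used, while VOPP1 had 0.0963 and PGAM1 0.346. The first set ranged from 0.917 to 0.968 over the 8 arrays. These r values describe arrays that share 3 treatments and a line, and the 2 NOX5 probe sets themselves had r = 0.657 over 9 arrays and 0.959 over 8.

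Taken over the 18 probe sets of the 8 other members, limma called 0 with Qmimic, 0 with Dmimic and 0 for the mean of both mimics against AllStar with all 9 arrays. A call needed a Benjamini-Hochberg adjusted p under 0.05 over all probe sets and a change of at least 1.5-fold. Over all probe sets the called share was 0% with Qmimic, 0.00549% with Dmimic and 0.0806% for both mimics. For Qmimic against Dmimic it called 0, with 0% of all probe sets called. At an unadjusted p under 0.05 there were 3 with Qmimic, 2 with Dmimic, 4 for both mimics and 1 for Qmimic against Dmimic, against 16.3%, 12.8%, 19.2% and 2.41% of all probe sets. The median difference over the 18 was -0.08 with Qmimic and -0.03 with Dmimic, beside -0.03 and -0.03 over all probe sets, and no probe set reached 1.5-fold.

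The groups did not overlap for a few of the 18 probe sets. With Qmimic 2 lay wholly above and 4 wholly below the AllStar arrays (14.1% and 10.8% of all probe sets), and with Dmimic 2 above and 3 below (11.9% and 7.04%). For both mimics 1 lay above and 3 below (8.33% and 3.83%), these being CAT 201432_at above, and NOX1 207217_s_at, NOX1 206418_at and CAT 215573_at below. Qmimic lay wholly above Dmimic for 1 and wholly below for 1 (7.11% and 8.95%).

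Without AllStar replicate 3, limma called 1 of the 18 with Qmimic (0.54% of all probe sets), 0 with Dmimic (0.864%), 0 for both mimics (0.721%) and 0 for Qmimic against Dmimic (0.0806%). An unadjusted p under 0.05 was then found for 3 with Qmimic (18.2% of all), 0 with Dmimic (17.1%), 1 for both mimics (19.1%) and 2 for Qmimic against Dmimic (11.1%). Wholly above AllStar lay 3 with Qmimic (17.9%), 5 with Dmimic (17%) and 2 for both mimics (10.4%), and wholly below lay 4 (20%), 3 (16.5%) and 3 (10.1%). The members' median difference was 0.04 with Qmimic and 0.06 with Dmimic in that set of arrays, on the other side of 0 from the values with all 9 arrays.

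**Figure D2:**
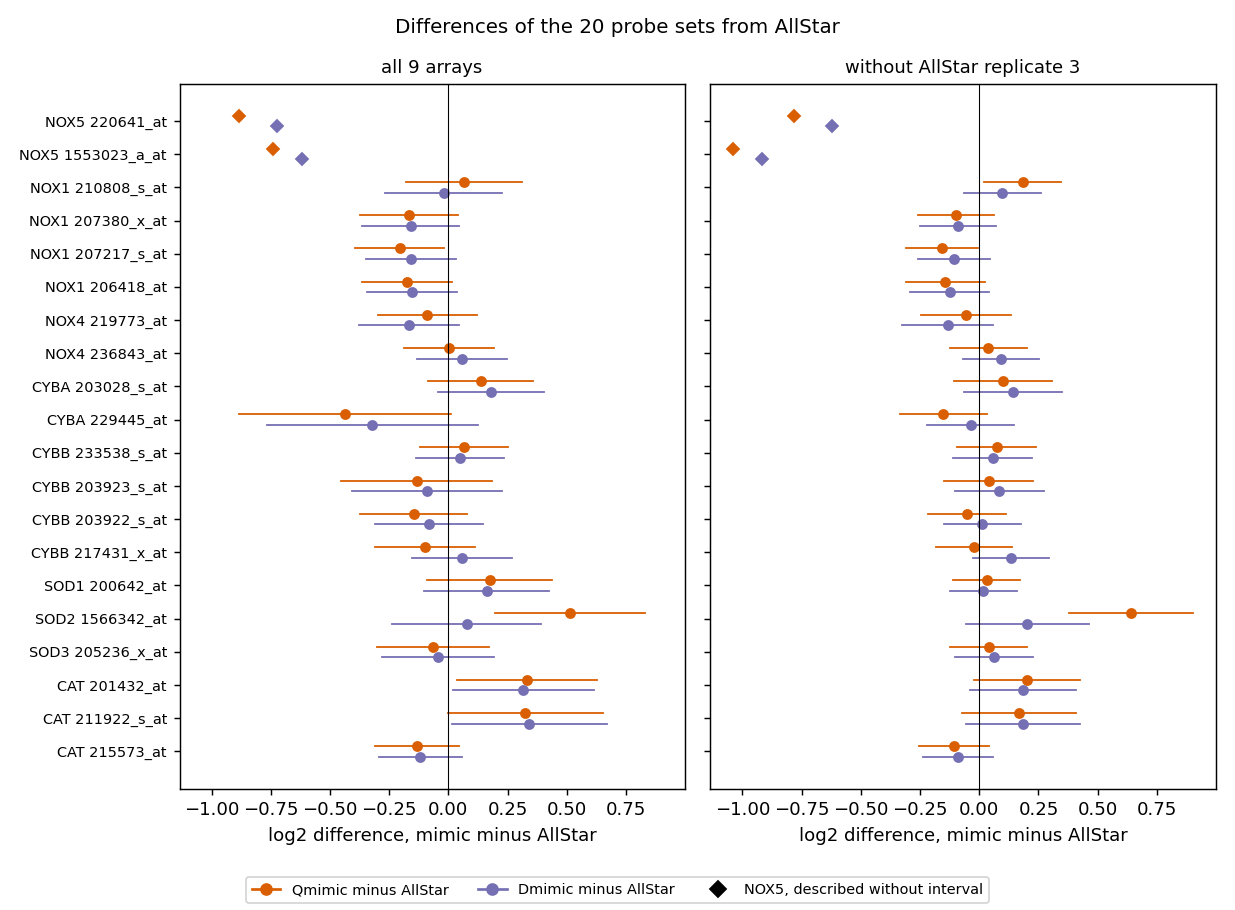
Log2 difference from AllStar (horizontal axis) of the 20 probe sets, for Qmimic and Dmimic, with all 9 arrays on the left and without AllStar replicate 3 on the right. Circles carry 95% intervals from limma and NOX5 is drawn as diamonds without one; NOX5 lies at -0.62 or below in both panels, and the largest difference of any other member is that of SOD2 with Qmimic, 0.51 on the left and 0.64 on the right.

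Among the catalytic subunits, NOX1, best known from colon epithelium, had 4 probe sets that disagreed. Its brightest, 210808_s_at, was at 6.46, 6.55 and 6.36 with Qmimic and 6.36, 6.37 and 6.36 with Dmimic, against 6.23, 6.31 and 6.62 with AllStar. The mimic arrays lay between AllStar replicates 2 and 3, and the difference for both mimics was 0.02 with all 9 arrays (adjusted p = 0.894 from limma) and 0.14 without AllStar replicate 3 (adjusted p = 0.281). The other 3 NOX1 probe sets were lower by small amounts, -0.16 to -0.18 for both mimics, with adjusted p from limma of 0.234 to 0.289, and -0.13 to -0.09 without AllStar replicate 3 (adjusted p of 0.28 to 0.486). Of these, the dim 207217_s_at and 206418_at had all mimic arrays below all AllStar arrays. The suffix _s_at or _x_at marks a probe set that can also bind other transcripts, as on 3 of the 4 NOX1 probe sets.

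NOX4, an oxidase that mainly releases hydrogen peroxide, gave signals near the floor of the arrays. Probe set 219773_at read 3.46, 3.44 and 3.46 with Qmimic, 3.54, 3.32 and 3.26 with Dmimic, and 3.48, 3.54 and 3.61 with AllStar. The lowest value on any array was 2.39 and the lower quartile of all probe sets 4.06. Differences for both mimics were -0.13 (adjusted p = 0.374) on 219773_at and 0.03 (adjusted p = 0.818) on 236843_at in limma with all 9 arrays, and -0.09 (adjusted p = 0.566) and 0.07 (adjusted p = 0.65) without AllStar replicate 3. On 219773_at the 3 Qmimic arrays lay below all AllStar arrays in both sets of arrays, by a mean of -0.09 (adjusted p = 0.591) with all 9.

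CYBB, the phagocyte oxidase subunit, was also dim, with means over the arrays of 2.88 to 4.27 on its 4 probe sets. Only 217431_x_at lay below the lower quartile of all probe sets, 4.06. The brightest, 233538_s_at, read 4.40, 4.25 and 4.25 with Qmimic, 4.22, 4.35 and 4.29 with Dmimic, and 4.25, 4.20 and 4.25 with AllStar, and the groups overlapped. For both mimics the 4 differences ran from -0.11 to 0.06, with adjusted p of 0.448 to 0.892 from limma, and without AllStar replicate 3 from -0.02 to 0.06 with adjusted p of 0.666 to 0.918. Probe set 203923_s_at was at 4.64 on AllStar replicate 3, above all 8 other arrays (4.06 to 4.29), and without that array its difference turned from -0.11 to 0.06. Both 95% intervals span 0. On 217431_x_at the Qmimic arrays (2.79, 2.86 and 2.72) lay below the Dmimic arrays (3.02, 2.93 and 2.90), a difference of -0.16 (adjusted p = 0.9999 from limma, and 0.404 without AllStar replicate 3).

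CYBA, which encodes the p22phox partner, was bright on 203028_s_at. It read 10.36, 10.13 and 10.11 with Qmimic and 10.20, 10.18 and 10.35 with Dmimic, against 10.16, 10.04 and 9.99 with AllStar. The 3 Dmimic arrays lay just above all AllStar arrays, by a mean of 0.18 (adjusted p = 0.465 from limma), while Qmimic overlapped them at 0.14 (adjusted p = 0.454). Without AllStar replicate 3 the difference for both mimics was 0.12 (adjusted p = 0.487 from limma). After cyclic loess the difference for both mimics was -0.00, where the deposited values gave 0.16. The second CYBA probe set, 229445_at, had -0.44 with Qmimic and -0.32 with Dmimic, and this rested on AllStar replicate 3, which read 7.27 against 6.33 and 6.49 for AllStar replicates 1 and 2. Without that array Qmimic gave -0.15 (adjusted p = 0.368 from limma) and Dmimic -0.04 (adjusted p = 0.887).

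SOD1, the copper-zinc dismutase of the cytosol, was bright on its single probe set. It read 12.54, 12.45 and 12.45 with Qmimic and 12.46, 12.48 and 12.45 with Dmimic, against 12.46, 12.43 and 12.01 with AllStar. Only AllStar replicate 3 was apart from the rest. The difference for both mimics was 0.17 (adjusted p = 0.356 from limma) with all 9 arrays and 0.02 (95% interval -0.10 to 0.15, adjusted p = 0.873) without that array. SOD3, the secreted enzyme, had -0.05 (adjusted p = 0.728) and 0.05 (adjusted p = 0.744) in these fits on its single probe set, an _x_at set at 6.16 to 6.53.

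SOD2, the manganese enzyme of mitochondria, read highest with Qmimic, a difference that passed the test only without AllStar replicate 3. The only probe set named for SOD2 alone, 1566342_at, read 6.46, 6.78 and 6.45 with Qmimic, 6.28, 6.00 and 6.10 with Dmimic, and 6.01, 5.84 and 6.30 with AllStar. All Qmimic arrays were above all other arrays, and the Dmimic and AllStar arrays overlapped. The difference of Qmimic from AllStar was 0.51 (1.43-fold higher, SE 0.14, adjusted p = 0.204 from limma) with all 9 arrays, which did not pass. Without AllStar replicate 3 it was 0.64 (1.56-fold higher, SE 0.12, adjusted p = 0.0309), the 1 call among the 18 probe sets, where 0.54% of all probe sets were called. Whether the call was kept depended on which further array was left out, while the difference stayed at 1.45-fold to 1.65-fold. The call was kept without Qmimic replicate 3 (1.62-fold, adjusted p = 0.0418 from limma) or any 1 Dmimic array (adjusted p = 0.021 to 0.0346). It was lost at 1.61-fold without Qmimic replicate 1 (adjusted p = 0.0794 from limma) and at 1.45-fold without Qmimic replicate 2 (adjusted p = 0.0929). Leaving out AllStar replicate 1 (1.65-fold, adjusted p = 0.155) or AllStar replicate 2 (1.47-fold, adjusted p = 0.261) left a single AllStar array, assumed to vary like the mimic arrays, and limma then called 2 and 9 probe sets over the whole array.

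Dmimic differed from AllStar on the same SOD2 probe set by 0.08 (adjusted p = 0.798 from limma) with all 9 arrays and by 0.20 (adjusted p = 0.43) without AllStar replicate 3. Qmimic minus Dmimic was 0.44 (95% interval 0.12 to 0.75, unadjusted p = 0.0115 from limma), with an adjusted p = 0.9999 over all probe sets, and an adjusted p = 0.168 without AllStar replicate 3. No probe set of any gene passed in that contrast with all 9 arrays, and 2.41% had an unadjusted p under 0.05. The 3 Qmimic arrays lay above the 3 Dmimic arrays, and the difference did not pass the adjustment.

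The 4 probe sets that name SOD2 and SOD2-OT1 together did not show the same size of difference. For 221477_s_at the signal was 7.10, 7.09 and 7.02 with Qmimic and 6.73, 6.94 and 6.83 with Dmimic, against 6.91, 6.91 and 6.75 with AllStar. Its Qmimic arrays again lay above all others, by 0.21 over AllStar (adjusted p = 0.295 from limma) and 0.16 without AllStar replicate 3 (adjusted p = 0.302). The other 3 differed between Qmimic and AllStar by -0.09 to 0.07 without AllStar replicate 3. With all 9 arrays 216841_s_at gave 0.55 (adjusted p = 0.372), where AllStar replicate 3 read 4.47 and the other 8 arrays 5.83 to 6.07.

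**Figure D3:**
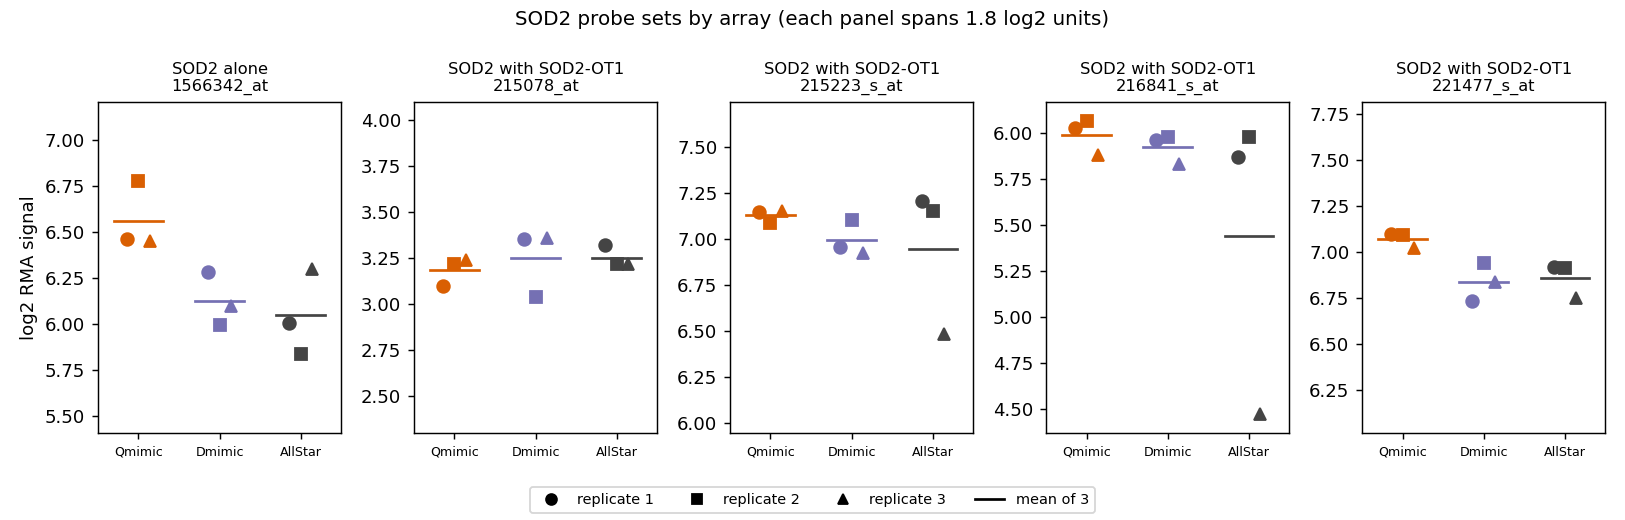
Log2 RMA signal (vertical axes, each spanning 1.8 units) of the probe set named for SOD2 alone, at the left, and of the 4 probe sets shared with SOD2-OT1, by array; bars are means of 3. Qmimic arrays lie above all others on 1566342_at and 221477_s_at, and AllStar replicate 3 lies far below the rest on 216841_s_at, at 4.47.

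CAT, the enzyme that splits hydrogen peroxide, was slightly higher with both mimics on its bright probe sets, and the difference did not pass the test. On 201432_at the level was 11.26, 11.10 and 11.04 with Qmimic and 11.09, 10.97 and 11.29 with Dmimic, against 10.95, 10.92 and 10.53 with AllStar. Every mimic array was above every AllStar array, the closest pair being Dmimic replicate 2 at 10.97 and AllStar replicate 1 at 10.95. The difference for both mimics was 0.33 (1.25-fold higher, SE 0.12, adjusted p = 0.197 from limma) with all 9 arrays and 0.19 (1.14-fold higher, SE 0.09, adjusted p = 0.28) without AllStar replicate 3, which read 0.40 lower (-0.40) than the mean of the other AllStar arrays. The second bright probe set, 211922_s_at, gave 0.33 (adjusted p = 0.217) and 0.18 (adjusted p = 0.362), with Qmimic replicate 3, Dmimic replicate 2 and AllStar replicate 1 at 9.21 to 9.22. The third, 215573_at, was dim at 3.31 to 3.54 and differed by -0.13 (adjusted p = 0.32), and by -0.10 (adjusted p = 0.414) without AllStar replicate 3.

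**Figure D4:**
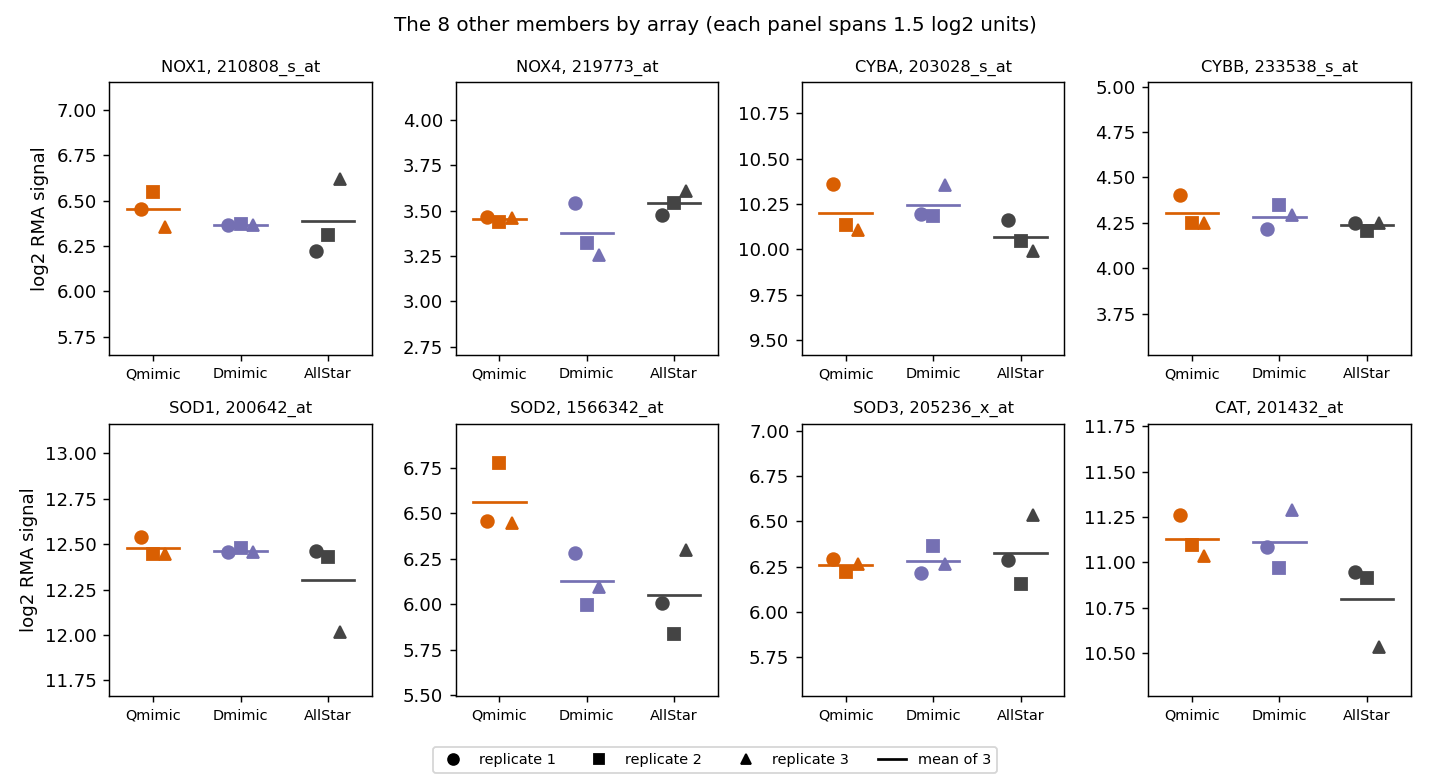
Log2 RMA signal of the brightest probe set of each of the 8 other members by array (vertical axes, each spanning 1.5 units); symbols give the replicate and bars the mean of 3. AllStar replicate 3 is the lowest array for SOD1, CAT and CYBA and the highest for NOX1, NOX4 and SOD3. The Qmimic arrays for SOD2 lie at 6.45 to 6.78, above all others.

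Deviations of AllStar replicate 3 from AllStar replicates 1 and 2 in the members differed in sign between bright and dimmer probe sets. The bright probe sets of SOD1 (-0.43), CAT (-0.40 and -0.47) and CYBA (-0.11) were low on it. Those with a mean below 6, of NOX1 (0.09 to 0.21), CAT (0.08), CYBB (0.02 to 0.52) and NOX4 (0.10 and 0.11), were high. Between 6 and 8, where the median over all probe sets was -0.25, the members other than NOX5 went the other way: SOD2 was 0.38, SOD3 0.31, CYBA 229445_at 0.85 and NOX1 210808_s_at 0.35 higher on that array. The part of array quality in the differences of these members was not tested beyond leaving the array out.

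Related genes gave no call, where few probe sets of any gene were called. From 5 lists with 68 genes, 57 were measured by a probe set of their own. In limma 0 were called in each direction for Qmimic, Dmimic or both mimics against AllStar and for Qmimic against Dmimic, with all 9 arrays and without AllStar replicate 3. The called shares of all probe sets were, in that order, 0%, 0.00549%, 0.0806% and 0% with all 9 arrays. Without AllStar replicate 3 these shares were 0.54%, 0.864%, 0.721% and 0.0806%. With all 9 arrays an unadjusted p under 0.05 was seen for 13 of the 57 with Qmimic (16.3% of all probe sets), 12 with Dmimic (12.8%), 18 for both mimics (19.2%) and 5 for Qmimic against Dmimic (2.41%). Without AllStar replicate 3 these counts were 15 (18.2%), 13 (17.1%), 11 (19.1%) and 11 (11.1%). The median difference over the 57 was 0.05 with Qmimic and 0.12 with Dmimic, beside -0.03 and -0.03 over all probe sets, and 0.02 and 0.04 without AllStar replicate 3, beside -0.01 and -0.00. Each of the 57 genes stood by its brightest probe set, so these medians were not matched for signal with those over all probe sets.

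Of 12 further oxidase subunits and maturation factors, 4 were positive and 8 negative for both mimics with all 9 arrays, and 9 positive and 3 negative without AllStar replicate 3, so no direction held. CYBC1, needed for the assembly of the phagocyte oxidase, was at 8.04 ± 0.038 with Qmimic and 7.99 ± 0.16 with Dmimic, against 7.62 ± 0.42 with AllStar (SD, n = 3 each; adjusted p = 0.223 for both mimics from limma). Its difference was 0.40 with all 9 arrays and 0.16 without AllStar replicate 3, and that of the GTPase gene RAC2 0.21 (adjusted p = 0.26) and 0.10. Among 8 measured regulators reported for NOX5 activity, the kinase gene CAMK2G differed by 0.34 for both mimics (adjusted p = 0.136) and CAMK2A by -0.35 (adjusted p = 0.248) in limma, and without AllStar replicate 3 by 0.22 and -0.13. The calmodulin genes had no probe set of their own.

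Of 12 peroxide-removing enzymes, 8 were positive and 4 negative for both mimics with all 9 arrays, and 6 and 6 without AllStar replicate 3. GPX2, a glutathione peroxidase of epithelia, differed by -0.31 (adjusted p = 0.175), and GPX4, which reduces lipid peroxides, by 0.29 (adjusted p = 0.233) in limma, and without AllStar replicate 3 by -0.17 and 0.13. In the thioredoxin and glutathione list 13 of 14 were positive for both mimics with all 9 arrays, and 10 of 14 without AllStar replicate 3. These counts were not matched for signal with all probe sets, and AllStar replicate 3 read low for bright ones. The exception with all 9 arrays was GLRX5, a mitochondrial glutaredoxin of iron-sulphur cluster assembly. It was at 9.98 ± 0.12 with Qmimic and 9.83 ± 0.31 with Dmimic, against 10.43 ± 0.057 with AllStar (SD, n = 3 each). Its difference for both mimics was -0.53 (adjusted p = 0.0992 from limma) with all 9 arrays and -0.54 (adjusted p = 0.0554) without AllStar replicate 3. All its mimic arrays lay below all AllStar arrays, as for 3.83% of all probe sets with all 9 arrays and 10.1% without AllStar replicate 3. CCS, the chaperone that hands copper to SOD1, differed by 0.29 (adjusted p = 0.152) and 0.24 (adjusted p = 0.142).

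Of 11 measured genes of the NRF2 pathway, which drives many antioxidant genes, 7 were positive with Qmimic and 10 with Dmimic against AllStar. These counts used all 9 arrays and were 6 and 9 without AllStar replicate 3. For both mimics they were 10 and 7. For Qmimic against Dmimic 2 were positive and 9 negative, with a median of -0.14, beside -0.01 over all probe sets. There 4 had an unadjusted p under 0.05 from limma with all 9 arrays (2.41% of all probe sets). Without AllStar replicate 3 there were 5 (11.1%), and the smallest adjusted p was 0.9999 and 0.131 in these fits. BACH1, a repressor of antioxidant genes, differed by 0.58 for both mimics (adjusted p = 0.135 from limma) on the brightest of its 3 probe sets, and by 0.34 (adjusted p = 0.0843) without AllStar replicate 3. The cystine transporter gene SLC7A11 was at 9.24 ± 0.086 with Qmimic and 9.61 ± 0.36 with Dmimic, against 8.98 ± 0.11 with AllStar (SD, n = 3 each), a difference of 0.45 for both mimics (adjusted p = 0.155 from limma) with all 9 arrays and 0.38 (adjusted p = 0.176) without AllStar replicate 3.

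**Figure D5:**
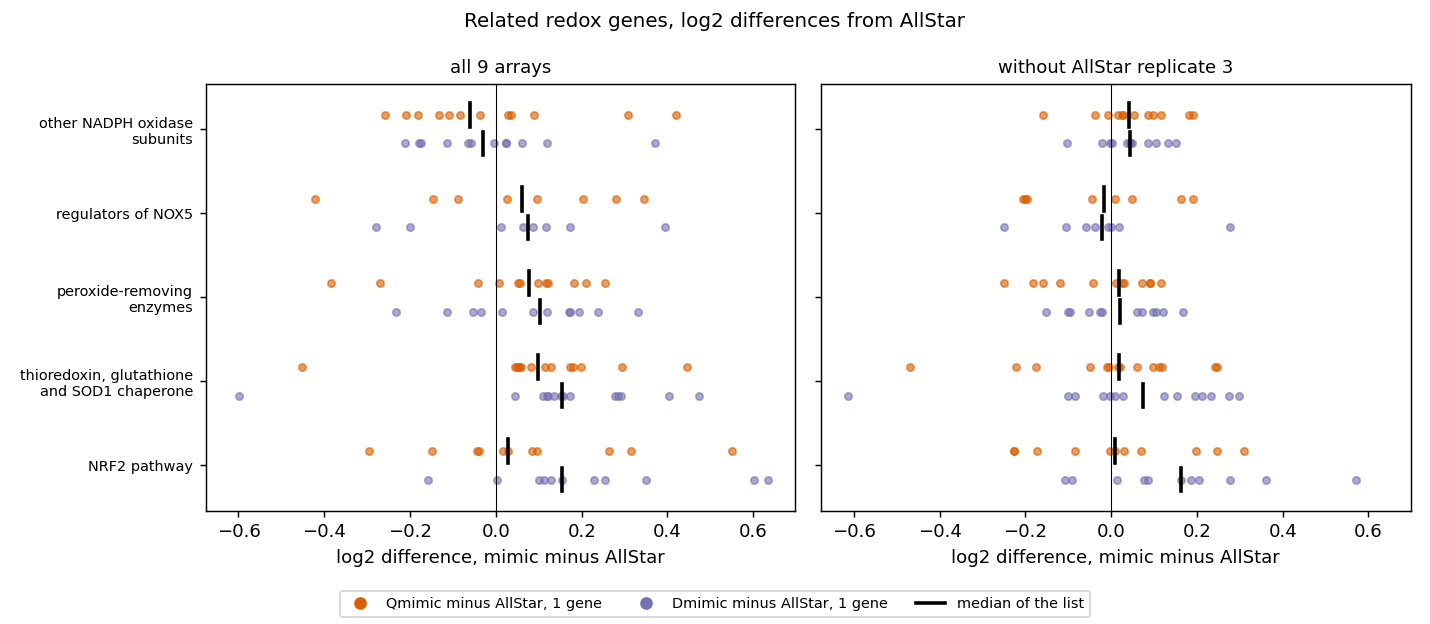
Log2 difference from AllStar (horizontal axis) of each measured gene in the 5 related lists, for Qmimic and Dmimic, with all 9 arrays on the left and without AllStar replicate 3 on the right; black bars are list medians. The points scatter on both sides of 0, and the median over all 57 genes is 0.05 with Qmimic and 0.12 with Dmimic on the left, against 0.02 and 0.04 on the right.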

How the data were processed

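Total RNA of 9 samples was hybridised to 1 Affymetrix HG-U133 Plus 2.0 array each. The authors deposited log2 values made by RMA, per the submitters' processing notes, with no version given for it or for limma. Precision is limited by the number of arrays: a difference of Qmimic from AllStar had a median 95% half-width of 0.26 (log2).

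The 62 control probe sets were set aside and 54613 were tested without a filter. By the platform annotation 41091 had 1 gene, 1801 several and 11721 none; 0 symbols needed updating, and the probe set with the highest mean stood for a gene. In limma 3.58.1 under R 4.3.3, 1 model with 3 groups gave 4 comparisons with moderated statistics, and every adjusted p is from such a fit, adjusted over all probe sets. A call needed an adjusted p under 0.05 and at least 1.5-fold. The fit was tried on simulated data with noise of equal spread on every array, which hold no array set apart like AllStar replicate 3.

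The members, the 5 lists of related genes and the markers were chosen with earlier results of these data known. Every member probe set is reported; from each list the text names called genes or else the 2 with the smallest adjusted p for both mimics, and as most like NOX5 the 5 genes with the highest r. Alternatives were leaving out each array, a replicate block, other normalizations, a filter, a variance trend, fits of the compared groups and other fold thresholds. Equal replicate numbers in different groups were not treated as pairs.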

Additional observations from a re-analysis of the deposited data

How the results depend on the processing

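The difference of NOX5 from AllStar, by which NOX5 was chosen, kept its sign in every alternative run. The alternatives reuse the arrays that chose it, so the kept sign is a description and no test. Leaving out 1 array at a time gave -0.95 to -0.78 with Qmimic and -0.85 to -0.62 with Dmimic on 220641_at, and -1.04 to -0.56 and -0.92 to -0.44 on 1553023_a_at. The alternatives that keep all arrays of the groups compared gave -1.04 to -0.81 with Qmimic and -0.86 to -0.67 with Dmimic on 220641_at, the lowest after repeated quantile normalization or cyclic loess and the highest after centring on the array median. On 1553023_a_at they gave -0.79 to -0.67 and -0.66 to -0.57. With a replicate block, which in this balanced design cannot change a difference of group means (NOX5 -0.88 with Qmimic and -0.72 with Dmimic on 220641_at), the count of calls among the 18 other probe sets was 0. Of 9 pairs of arrays with the same number, 3 had a residual correlation above 0.1, and the labels give no shared day or batch. The count of called probe sets of the 8 other members was 0 to 1 with Qmimic over the fits that left out 1 array. It was 1 without AllStar replicate 3, with or without the fold threshold, and 1 when that array and Qmimic replicate 3 or any 1 Dmimic array were left out; the last 2 kinds of setting were added after the data were seen. In every other setting and comparison run it was 0. The SOD2 difference of Qmimic from AllStar was 0.41 to 0.58 in the 15 other settings, with an adjusted p of 0.129 to 0.593 from limma. Of the other members' differences, 23 of 1098 moved by more than the replicate spread, 11 of them after cyclic loess, 8 after repeated quantile normalization and 4 after centring. NOX4, NOX1 207217_s_at and 206418_at, CYBB 217431_x_at and CAT 215573_at had mean signals below the lower quartile of all probe sets, 4.06. Whether that limits their differences was not tested.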
